A study of Mus musculus with 24 samples.

Results

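The genes described here encode the elastic fibre and the small proteoglycans that coat collagen fibrils, followed in mouse embryonic fibroblasts (MEF) as they left quiescence. The members were 10 genes chosen by name, Eln, Fbln1, Fbln5, Fbn1 and Lox for the elastic fibre and Dcn, Lum, Ogn, Bgn and Fmod for the small proteoglycans. Each was read from the probe set that the platform annotation gives to that gene alone and that had the highest mean over all arrays. No probe set is listed for Fbn1, so 9 of the 10 members were measured, among 9908 genes tested. MEF are connective tissue cells cultured from mouse embryos, here at early passage. They spent 48 h in medium poor in foetal calf serum, after which the medium was exchanged for 10% serum. The sample protocols give the low serum as 0.5%, and the design text gives 0.1%. No strain, embryonic age or genotype is named in the sources used here. RNA was measured on 24 Affymetrix arrays, which cover starved cells (0 h), 17 times from 0.5 h to 30 h after refeeding, and cells that grew in 10% serum without starvation (unsynchronised). The 0, 12, 18 and 24 h points and the unsynchronised cells had 2 arrays each and the other 14 times had 1. The labels call the duplicates biological, but nothing says that they came from separate cultures, so every p-value below rests on array-to-array spread that may be only technical.

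An elastic fibre has a core of elastin, the product of Eln, which lysyl oxidase (Lox) cross-links through its lysines, and a sheath of microfibrils built on fibrillins such as that of Fbn1. Fibulin-5 (Fbln5) helps to place elastin on the microfibrils, and fibulin-1 (Fbln1) lies within the fibre. Decorin (Dcn), biglycan (Bgn), lumican (Lum), fibromodulin (Fmod) and osteoglycin (Ogn, also called mimecan) are small leucine-rich proteoglycans, secreted proteins of leucine-rich repeats that bind collagen and influence how its fibrils grow. Fibroblasts are a main source of both structures in connective tissue.

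The deposited intensities are linear, and log2 of them was taken for each test. A gene was tested if 2 or more arrays had an intensity of at least 20 for its probe set. Agreement between duplicates over the 14182 probe sets that reached this minimum was lowest at 0 h (Pearson's r of 0.963, SD of 0.35 on the log2 scale). The other duplicated groups had r of 0.979 to 0.986 and SDs of 0.22 to 0.27. All 9 fibroblast markers were measured, led by Vim with a mean intensity of 4097. Their summed intensity was 17355 and 18735 on the 0 h arrays, 16302 and 16587 at 24 h and 14084 and 14619.5 in unsynchronised cells. They went both ways. At 24 h Pdgfra, Thy1 and S100a4 passed the test as higher and Col1a2, Col3a1 and Fn1 as lower, where 14.5% of all genes were higher and 12.0% lower. Pdgfra (adjusted p = 0.029 from limma), Col1a2 (0.037) and Fn1 (0.047) were nearest the threshold, and the counts changed without either 0 h array. In unsynchronised cells 2 were higher and 6 lower than at 0 h, where 21.7% and 21.0% of all genes were. Of 9 tested markers of macrophages and leukocytes, 6 passed the test as lower at 24 h and 1, Itgam, as higher, where 12.0% of all genes were lower and 14.5% higher. The 6 were Ptprc, Cd68, Adgre1, Csf1r, Tyrobp and Fcer1g. Without the first 0 h array 4 were lower and 2 higher. Of the 6, Ptprc and Tyrobp had 24 h means below the minimum. Their size of change is therefore not read, and nothing is read from the count. The sum over the 11 listed genes was 1576 and 2181 at 0 h, 1095 and 1344 at 24 h and 949.6 and 1024 in unsynchronised cells. The brightest was Lyz2 (mean 792), whereas Ptprc, the common leukocyte antigen, had a mean of 20.0 at 0 h, 11.1 at 24 h and at most 20.4 on any array, and Aif1 and Laptm5 did not reach the minimum. A list of 8 smooth and skeletal muscle genes, some of which cultured fibroblasts also use, was led by Acta2 (mean 3479) and had a summed intensity of 3878 to 4513 at 0 h, 4616 to 4693 at 24 h and 6392 to 7608 in unsynchronised cells. At 24 h Cnn1 was higher and Myh11, whose 24 h mean was below the minimum, was lower. The part of these shifts in the results below was not tested, and in bulk RNA fewer cells of a type and less RNA per cell cannot be told apart. Of 3 tested neural genes, Tubb3 (mean 138) and Nes, whose 0 h mean was below the minimum, were higher at 24 h. Map2, whose 24 h mean was below the minimum, was lower. The sum over 7 neural genes was 155 to 167 at 0 h and 252 to 273 at 24 h. Endothelial, epithelial, cartilage and adipocyte lists held 2, 0, 1 and 2 tested genes. Their brightest genes were Kdr (mean 22.8), Krt8 (15.4), Sox9 (252), which was lower in unsynchronised cells than at 0 h, and Fabp4 (25.5). Tek, also endothelial, passed the test as lower with means of 27.7 at 0 h and 6.41 at 24 h, the latter below the minimum, so its size of change is not read. Pecam1 and Cdh5 had means of 5.06 and 11.4.

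The measured members showed 3 patterns. Their group means in the course were highest at 0 h for Dcn, Lum, Ogn, Bgn and Fmod, at 0.5 h for Eln and Fbln5 and at 2 h for Fbln1 and Lox. Ogn, Eln, Lum, Fmod and Fbln5 fell over the course. Dcn, Lum and Ogn were lower in unsynchronised cells than at 24 h. Lox and Bgn stayed within a narrow range and passed no test, apart from alternatives given below. At 24 h against 0 h, 5 of the 9 members were lower and 0 higher (limma, adjusted p under 0.05; 0 were higher at an unadjusted p under 0.05 either), where, as above, 12.0% of all genes tested were lower. Those 5 were Eln, Fbln5, Lum, Ogn and Fmod. The same 5 were lower at 12 h, where 11.8% of all genes were. At 18 h, 7 members were lower, the same 5 with Fbln1 and Dcn, against 14.7% of all genes. In unsynchronised cells, 6 were lower than at 0 h, the same 5 and Dcn, against 21.0% of all genes (21.7% were higher). The median log2 change of the 9 members was -0.63 at 24 h and -1.02 in unsynchronised cells, where the median of all genes was 0.02 and 0.0052. These comparisons share the 0 h arrays.

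The timing of the falls was read by averaging neighbouring single arrays. At 0.5 to 2 h, 0 members were lower than at 0 h, where 1.54% of all genes were (limma). None of the 9 reached an unadjusted p under 0.05 there in either direction. Lum came nearest with Fmod, at -0.25 (95% interval -0.51 to 0.01) and -0.33 (95% interval -0.66 to 0.01) on the log2 scale. Eln gave 0.58 (adjusted p = 0.42), which was 1.40 and past the threshold without the second 0 h array (0.0012) and -0.24 without the first. At 4 to 10 h, 4 members were lower, Fbln5, Lum, Ogn and Fmod, against 22.5% of all genes. At 26 to 30 h the 5 members named at 24 h were lower, against 18.9%, with Fbln5 not past the threshold in a fit to the compared groups alone (adjusted p = 0.13). Between later times few genes differed. Ogn was the member that passed the test as lower at 24 h than at 12 h, where 1.69% of all genes were lower, while the larger change of Eln (-1.24) did not pass (adjusted p = 0.13). Ogn was also the member lower at 18 h than at 12 h (0.616% of all genes), and 0 members were lower at 24 h than at 18 h (0.0202%), also at an unadjusted p under 0.05 (limma). An F test over all 17 times after 0 h picked 5 members, the same as at 24 h, a share of the 9 not far above the 43.7% of all genes that it picked.

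**Figure D1:**
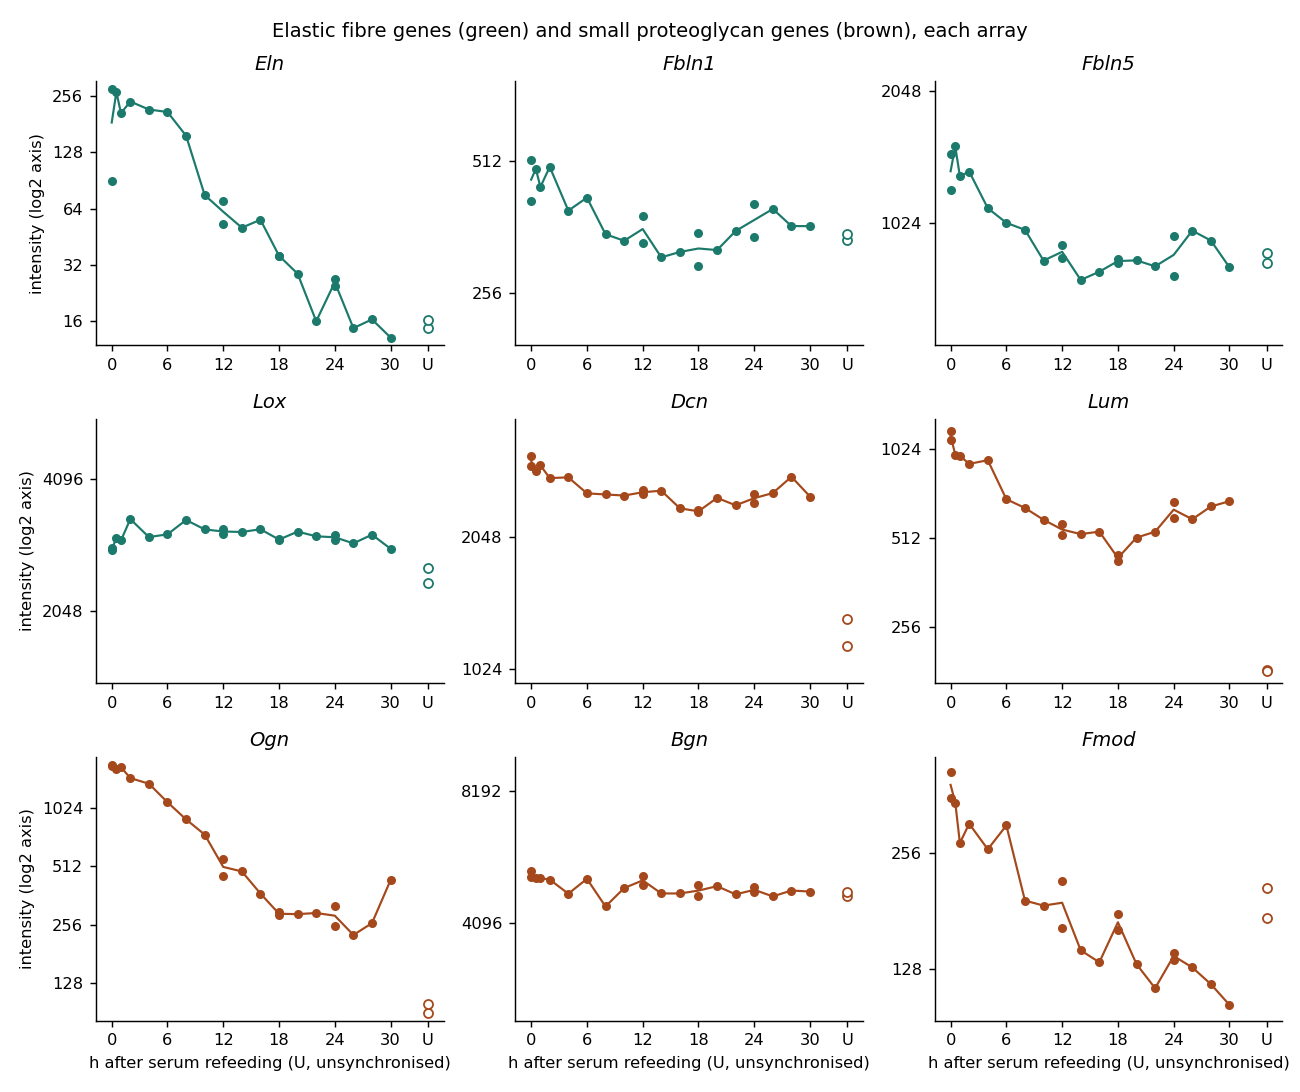
Intensity of the 9 measured members on each of the 24 arrays (points; log2 axis) against hours after serum refeeding, with lines through the mean of each time and open circles for the 2 arrays of unsynchronised cells (U). Ogn and Eln fall through most of the course, Dcn and Lum lie lowest in unsynchronised cells, and Lox and Bgn stay nearly level.

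Ogn had the widest range of the small proteoglycans. Its intensity was 1704 and 1677 on the 0 h arrays, then 1613 at 0.5 h, 1653 at 1 h, 1453 at 2 h and 1359 at 4 h. It went on to 1092 at 6 h, 891 at 8 h and 745 at 10 h, and the duplicates read 455 and 561 at 12 h. From 14 h to 16 h it read 482 and 371, at 18 h 287 and 297, at 20 and 22 h 291 and 295, and at 24 h 319 and 252. Every array after 0 h was thus below both 0 h arrays, and from 18 h to 24 h the arrays no longer separated by time. The last arrays read 227 at 26 h, 261 at 28 h and 435 at 30 h, the last of which has no replicate. Unsynchronised cells read 90.6 and 100.04, below every array of the course. The log2 change was -1.74 at 12 h (SE 0.16, adjusted p = 3e-05 from limma) and -2.58 at 24 h (SE 0.16, adjusted p = 6.3e-06), a 5.96-fold difference. It ranked 20 among the falls of all 9908 genes at 24 h. In unsynchronised cells Ogn was 17.8-fold below 0 h (log2 change -4.15, adjusted p = 1.7e-07), where it ranked 4, and 24 h lay 2.98-fold above unsynchronised cells (log2 change 1.57, adjusted p = 0.00091). The fall from 12 h to 24 h was -0.83 on the log2 scale (SE 0.16, adjusted p = 0.014 from limma), and was not past the threshold without the second 12 h array (adjusted p = 0.15) or the second 24 h array (0.097). That from 12 h to 18 h (-0.79, adjusted p = 0.028) lost its call in 8 of 21 alternatives.

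Ogn is the third of 3 genes of the same family that follow each other on chromosome 13, after Aspn, which encodes asporin, and Omd, which encodes osteomodulin. Aspn was lower at 24 h, as Ogn was. Aspn read 2486 and 2108 at 0 h, 773 and 729 at 12 h, 449.8 and 456 at 24 h and 360.3 and 344 in unsynchronised cells. Its log2 change at 24 h was -2.34 (SE 0.15, adjusted p = 6.9e-06 from limma). Omd was dim, with 57.4 and 21.5 at 0 h and 7.43 and 5.49 at 24 h. It reached the minimum of 20 on the arrays from 0 to 4 h and on no later one, so no size is given for its change. The next gene, Nol8, which encodes a nucleolar protein, did not follow: it read 102 and 80.5 at 0 h and 108 and 93.7 at 24 h (log2 change 0.15, adjusted p = 0.55). On single arrays between 6 h and 16 h Aspn and Ogn ran close together. They were at 59.1% and 64.6% of their 0 h means at 6 h and 23.2% and 21.9% at 16 h. At 26 h they were further apart, at 21.2% and 13.4%. In unsynchronised cells Aspn was at 15.7% and 15.0% and Ogn at 5.36% and 5.92%. Aspn was not among the 3 genes that ran closest to Ogn over the group means, which are given below.

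Because Aspn and Ogn both fell, the 250 bases before the start sites of the 3 genes are shown, from RefSeq on GRCm38.p6, all on the plus strand. Capitals mark matches to TATAAA, the core of the TATA box, or to GGGCGG, the core of the GC box, on either strand. Over 32851 promoter windows of this length, 12.4% hold TATAAA and 32.7% hold GGGCGG, and the median GC content is 52.4%. A match is a run of letters and not a site shown to be used.
Aspn (chr13:49544193-49544442): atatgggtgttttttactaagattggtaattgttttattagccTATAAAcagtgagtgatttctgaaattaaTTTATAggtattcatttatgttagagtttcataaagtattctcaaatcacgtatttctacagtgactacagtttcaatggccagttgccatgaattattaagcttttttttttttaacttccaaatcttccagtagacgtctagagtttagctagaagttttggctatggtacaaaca
Omd (chr13:49582212-49582461): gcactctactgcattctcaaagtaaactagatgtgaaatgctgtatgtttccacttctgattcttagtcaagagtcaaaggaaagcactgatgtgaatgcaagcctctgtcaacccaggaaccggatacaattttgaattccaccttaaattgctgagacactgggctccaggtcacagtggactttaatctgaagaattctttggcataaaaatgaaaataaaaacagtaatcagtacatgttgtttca
Ogn (chr13:49607765-49608014): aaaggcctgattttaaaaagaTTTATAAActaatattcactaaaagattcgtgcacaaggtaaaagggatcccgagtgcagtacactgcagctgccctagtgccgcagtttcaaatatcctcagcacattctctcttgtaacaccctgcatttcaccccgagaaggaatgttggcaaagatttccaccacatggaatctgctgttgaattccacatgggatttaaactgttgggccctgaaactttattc
The windows of Aspn and Ogn held 2 matches to TATAAA each, and in Ogn the 2 overlap as TTTATAAA, which reads as a match on each strand. In both windows the matches lie nearer the upstream end than the start site, so they are not read as TATA boxes. That of Omd held 0, and none of the 3 held GGGCGG. Their GC content was 30.0%, 38.4% and 42.0%, in the order printed.

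**Figure D2:**
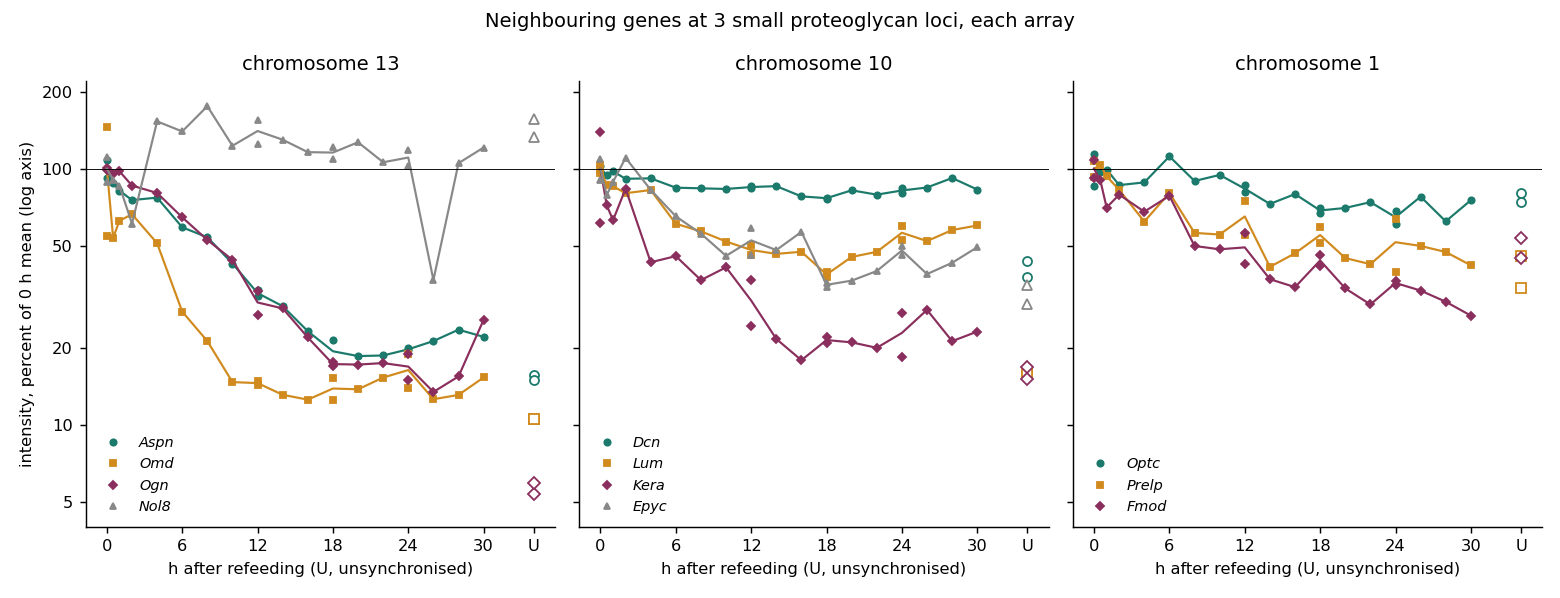
Intensity as a percent of the gene's 0 h mean (log axis) on each array, for neighbouring genes on chromosomes 13, 10 and 1, with open symbols for unsynchronised cells (U). Aspn and Ogn fall through the course and Nol8 does not, apart from a low value of 36.8% on the single 26 h array, and Lum lies further below its 0 h mean than Dcn. Omd from 6 h, Kera from 4 h, and Epyc and Optc on every array are below an intensity of 20, where the percent is uncertain.

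Lumican fell by 12 h and had the lowest arrays of its course at 18 h. Lum read 1176 and 1096 at 0 h, 978 at 0.5 h, 970.1 at 1 h, 911 at 2 h and 938 at 4 h. The next arrays read 693 at 6 h, 647 at 8 h and 590.4 at 10 h, then 571 and 524 at 12 h, 528 at 14 h, 538 at 16 h and 428 and 449.6 at 18 h. Every array after 0 h was below both 0 h arrays. It then read 514 at 20 h, 538 at 22 h, 677 and 600.2 at 24 h, 593 at 26 h, 655 at 28 h and 682 at 30 h. Unsynchronised cells read 183 on both arrays, far below all 22 arrays of the course. The log2 change from 0 h was -1.37 at 18 h (SE 0.13, adjusted p = 4.1e-05 from limma) and -0.83 at 24 h (SE 0.13, adjusted p = 0.00096). In a comparison chosen after the values were seen, the duplicates at 24 h both lay above those at 18 h, by 0.54 on the log2 scale (95% interval 0.25 to 0.82), which missed the threshold over all genes (adjusted p = 0.24). Unsynchronised cells were 6.20-fold below 0 h (log2 change -2.63, adjusted p = 7.4e-07 from limma) and 3.48-fold below 24 h (adjusted p = 9.1e-05).

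Decorin changed little over the course, yet differed between the course and unsynchronised cells. Dcn read 3127 and 2975 at 0 h, between 2544 and 2979 on the 7 arrays from 0.5 h to 10 h, and 2559.7 and 2616 at 12 h. It read 2609 and 2379 at 14 and 16 h, 2327 and 2356 at 18 h, 2513 and 2417 at 20 and 22 h, 2568 and 2449.8 at 24 h and 2577, 2807 and 2530.3 at 26, 28 and 30 h. Unsynchronised cells read 1328 and 1157, below every array of the course. The change at 4 to 10 h was -0.22 on the log2 scale (adjusted p = 0.13 from limma). That at 24 h was -0.28 (95% interval -0.56 to -0.0017, adjusted p = 0.13). With values below 20 set to 20 both passed the threshold (adjusted p = 0.045 and 0.047), as with a variance trend (0.037 and 0.035). In each case the log2 change stayed the same. That at 18 h was -0.38 (adjusted p = 0.043), and its adjusted p ran from 0.0064 to 0.16 over 21 alternatives, 14 of which lost the call. Against 0 h, unsynchronised cells were 2.46-fold lower (log2 change -1.30, SE 0.13, adjusted p = 3.1e-05). At 24 h against unsynchronised cells, 3 of the 9 members were higher, where 3.01% of all genes were: Lum, Ogn and Dcn, the last by 1.02 on the log2 scale (adjusted p = 0.0022).

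Dcn and Lum are neighbours on chromosome 10, followed by Kera, which encodes keratocan, and Epyc, which encodes epiphycan. Kera was dim, at 47.7 and 21.1 at 0 h and 9.38 and 6.35 at 24 h. It reached the minimum on the arrays from 0 to 2 h and on no later one, so no size is given for its change. Epyc did not reach the minimum and read 18.9 and 15.6 at 0 h and 8.59 and 7.99 at 24 h.

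Fibromodulin, which holds collagen molecules together in growing fibrils and also binds lysyl oxidase, fell in steps. Fmod read 416 and 356 at 0 h, 347 at 0.5 h, 272 at 1 h, 306 at 2 h, 262 at 4 h, 303 at 6 h, 193 at 8 h and 187 at 10 h. The later arrays read 217 and 164 at 12 h, 143 at 14 h, 133 at 16 h, 177 and 161 at 18 h, 132 at 20 h, 114 at 22 h and 135 and 141 at 24 h. It ended at 129, 117 and 103 at 26, 28 and 30 h, and the 30 h array was the lowest of its 24 arrays. Unsynchronised cells read 173 and 208, within the range of 8 to 18 h and above both 24 h arrays. The log2 change was -1.03 at 12 h (adjusted p = 0.0012 from limma), -1.48 at 24 h (SE 0.17, adjusted p = 0.00015) and -1.02 in unsynchronised cells (adjusted p = 0.00079). At 24 h against unsynchronised cells its log2 change was -0.46 (95% interval -0.83 to -0.09, adjusted p = 0.16), opposite in sign to those of Dcn, Lum and Ogn. A second, dimmer probe set for Fmod (mean 30.8) was also lower at 24 h (adjusted p = 0.00043 from limma). Its 24 h mean of 19.3 was below the minimum, so its size of change is not read.

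On chromosome 1 Fmod follows Prelp, another gene of the family whose product anchors basement membranes to connective tissue. Prelp read 768 and 670.3 at 0 h and 284 and 459.8 at 24 h, and was lower (log2 change -0.99, SE 0.24, adjusted p = 0.012 from limma). Without the first 0 h array its adjusted p was 0.056. Optc, before Prelp, did not reach the minimum.

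Biglycan, a close relative of decorin, was among the brightest probe sets of the array, and this probe set did not pass the test in any comparison. Bgn read 5216 and 5388 at 0 h, between 4470.3 and 5191 on the 7 arrays from 0.5 h to 10 h, 5256 and 4997 at 12 h and 4724 and 4994 at 18 h. It read 4817 and 4940.3 at 24 h, 4713 to 4861 from 26 h to 30 h, and 4715 and 4822 in unsynchronised cells. The 24 h arrays lay below both 0 h arrays, but the log2 change was small, -0.12 (95% interval -0.39 to 0.15, adjusted p = 0.5 from limma). For unsynchronised cells it was -0.15 (95% interval -0.42 to 0.11). A second, dimmer probe set for Bgn (mean 1226) gave -0.33 at 24 h (adjusted p = 0.28) and was lower at 26 to 30 h (-0.64, adjusted p = 0.028), where the brighter probe set gave -0.14 (adjusted p = 0.35). Of all genes tested, 2 had a higher mean than Bgn, 25 than Lox and 42 than Dcn. Of the 64 genes with a mean over 2000, 5 were called at 24 h in either direction, and of the other 9844 genes 2618 were. What brightness has to do with the small changes of these 3 members was not tested.

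The windows before the starts of Fmod, which fell, and Bgn, which did not pass the test, are given in the same form, both on the plus strand of GRCm38.p6 in RefSeq.
Fmod (chr1:134037004-134037253): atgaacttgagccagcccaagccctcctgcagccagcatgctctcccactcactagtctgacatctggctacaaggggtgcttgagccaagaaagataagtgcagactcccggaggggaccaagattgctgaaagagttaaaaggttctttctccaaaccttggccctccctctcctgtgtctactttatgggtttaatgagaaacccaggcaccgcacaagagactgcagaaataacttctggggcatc
Bgn (chrX:73483351-73483600): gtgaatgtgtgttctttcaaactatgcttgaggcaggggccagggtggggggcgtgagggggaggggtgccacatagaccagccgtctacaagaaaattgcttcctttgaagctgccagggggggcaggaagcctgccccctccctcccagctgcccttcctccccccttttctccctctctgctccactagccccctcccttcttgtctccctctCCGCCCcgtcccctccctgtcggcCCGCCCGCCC
The window of Bgn held 3 matches to GGGCGG, all near its start site, and had a GC content of 64.4%. That of Fmod held neither motif and had a GC content of 51.2%. Of the 10 members, 6 had a promoter window in the table used.

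Among elastic fibre genes, Eln fell furthest, and its 0 h duplicates disagreed. Eln read 89.8 and 279.9 at 0 h, a 3.12-fold difference, then 269 at 0.5 h, 208 at 1 h, 239 at 2 h, 217 at 4 h, 210.4 at 6 h and 157 at 8 h. The first 0 h array was therefore below all of the arrays from 0.5 h to 8 h, and the second above them. It then read 75.7 at 10 h, 53.0 and 70.3 at 12 h, 50.7 at 14 h, 55.9 at 16 h, 35.8 and 35.9 at 18 h, 28.8 at 20 h and 16.0 at 22 h. The last arrays read 27.0 and 24.8 at 24 h, 14.7 at 26 h, 16.4 at 28 h and 13.1 at 30 h, and unsynchronised cells read 14.7 and 16.3. From 10 h on every array was below both 0 h arrays, and 6 of the 24 arrays were below 20, where a fold is uncertain. The log2 change was -2.62 at 24 h (SE 0.39, adjusted p = 0.00074 from limma), -3.43 at 26 to 30 h (adjusted p = 7.2e-05) and -3.36 in unsynchronised cells (adjusted p = 8.9e-05). Each of these sizes depended on which 0 h array was used, though all stayed past the threshold without either array. Leaving out the first array gave -3.44 at 24 h, -4.25 at 26 to 30 h and -4.18 in unsynchronised cells, and leaving out the second gave -1.79, -2.61 and -2.54. With values below 20 set to 20 the change at 26 to 30 h was -2.99. In the early hours the direction depended on it too. At 4 to 10 h the change was -0.05 with both (adjusted p = 0.91), -0.88 without the first (0.0031) and 0.77 without the second (0.0046). At 12 h the change of -1.38 (adjusted p = 0.021 from limma) was -2.20 without the first 0 h array and -0.56 without the second. It was not past the threshold without the first 12 h array (0.13) or the second (0.062), with values below 20 set to 20 (0.07) or in a fit to the compared groups alone (0.084). The change from 12 h to 24 h, -1.24, passed the threshold without either 0 h array (0.0012 each) and in a fit to the compared groups alone (0.0084).

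Fbln5 fell by a smaller amount, most of it by 10 h. It read 1218 and 1470.5 at 0 h, 1532, 1309.5 and 1342 at 0.5, 1 and 2 h, and 1107, 1026, 988 and 841 at 4, 6, 8 and 10 h. From there it read 911 and 851 at 12 h, 760.0 at 14 h, 794 at 16 h, 849 and 829 at 18 h, 842 at 20 h, 816 at 22 h, 778 and 956 at 24 h and 984, 935 and 812 at 26, 28 and 30 h. All arrays from 4 h on were below both 0 h arrays, and the unsynchronised cells, at 831 and 873, were within the range of the later course. The log2 change was -0.63 at 24 h (SE 0.15, adjusted p = 0.0098 from limma) and -0.65 in unsynchronised cells (adjusted p = 0.0053), and 24 h did not differ from unsynchronised cells past the threshold (0.02, 95% interval -0.31 to 0.35). In a fit to the compared groups alone, the changes at 12 h (adjusted p = 0.054), 24 h (0.076) and 4 to 10 h (0.16) were not past it. The change at 24 h was not past it without the first 24 h array (adjusted p = 0.09), nor that at 12 h without the second 12 h array (0.082), nor that at 4 to 10 h without the second 0 h array (0.12) or the 10 h array (0.053).

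Fbln1 had a course of similar shape and smaller size. It read 416 and 515 at 0 h, 492, 448 and 497 at 0.5, 1 and 2 h, between 338 and 423 from 4 h to 10 h, 384 and 334 at 12 h and 352 and 296 at 18 h. It read 344 and 409 at 24 h, 364 to 399 from 26 h to 30 h and 338 and 349 in unsynchronised cells. At 24 h the change of -0.30 (95% interval -0.66 to 0.06, adjusted p = 0.19 from limma) was not past the threshold. That at 18 h was -0.52 (adjusted p = 0.033), and its adjusted p ran from 0.018 to 0.22 over 21 alternatives, 8 of which lost the call. In unsynchronised cells it was -0.43 (adjusted p = 0.054). That change passed the threshold under renewed quantile normalization (-0.46, adjusted p = 0.038) and with a variance trend (adjusted p = 0.033).

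Lox, whose product cross-links both elastin and collagen, did not pass the test in any comparison. It read 2822 and 2843 at 0 h, 2998 and 2966 at 0.5 and 1 h, 3317 at 2 h, between 3018 and 3301 from 4 h to 10 h and 3061 and 3155 at 12 h. It read 2977 and 2981 at 18 h, 3052 and 2978 at 24 h, 2838 to 3057 from 26 h to 30 h and 2375 and 2560.5 in unsynchronised cells. Its lowest value in the course was at 0 h, unlike every other member, and unsynchronised cells were below all arrays of the course. The log2 change was 0.09 at 24 h (95% interval -0.18 to 0.36, adjusted p = 0.62 from limma) and -0.20 in unsynchronised cells (95% interval -0.46 to 0.07, adjusted p = 0.2). With values below 20 set to 20 the latter passed the threshold (adjusted p = 0.043) at the same size.

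**Figure D3:**
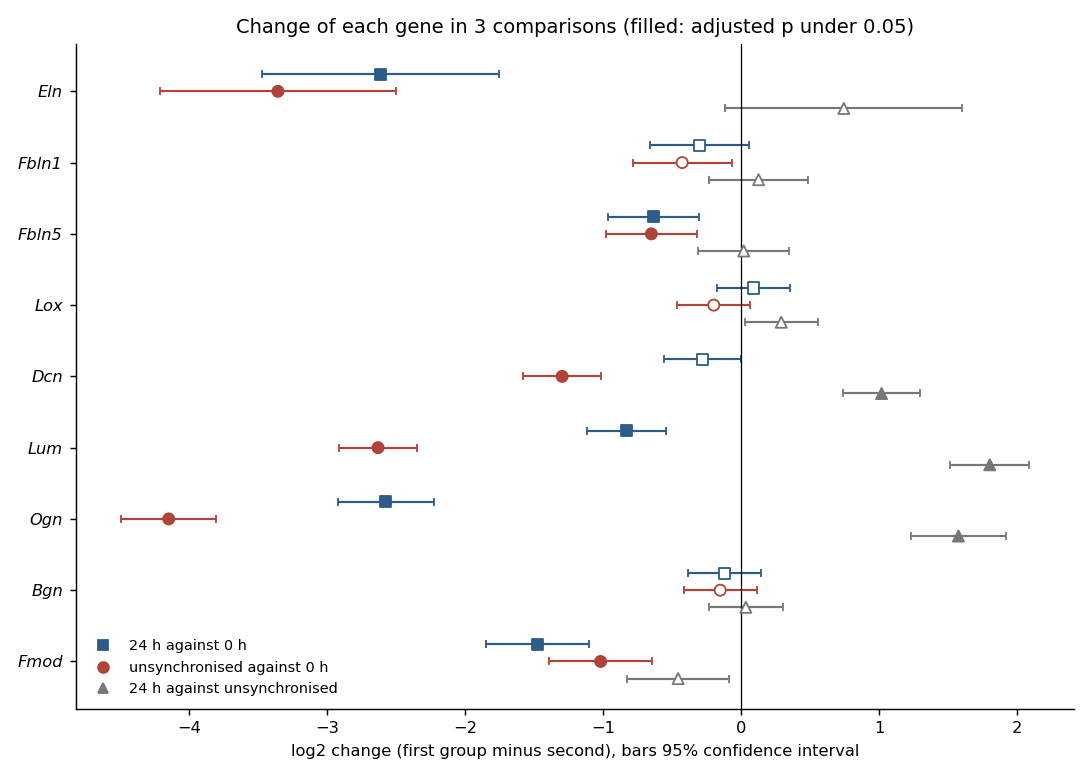
Log2 change of each measured member at 24 h against 0 h (squares), in unsynchronised cells against 0 h (circles) and at 24 h against unsynchronised cells (triangles), with 95% confidence intervals from limma and filled symbols for an adjusted p under 0.05. Dcn, Lum and Ogn lie further below 0 h in unsynchronised cells than at 24 h. The intervals of Fbln1, Lox and Bgn at 24 h against 0 h span 0.

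The 5 members that passed the F test fell at different times. The time at which the mean log2 level crossed midway between 0 h and its lowest point was 5.88 h for Lum, 6.91 h for Fbln5, 7.86 h for Fmod, 10.9 h for Ogn and 16.9 h for Eln. That of Ogn lay between 10.6 and 11.3 h and that of Lum between 5.69 and 5.99 h under the other scalings and without single duplicates, so their order held, whereas Fbln5 (5.21 to 8.33 h) overlapped both Lum and Fmod (7.68 to 8.42 h). For Eln it was 12.1 h without the first 0 h array and 12.9 h with values below 20 set to 20. These times are descriptions with no test, since most times have 1 array.

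The other genes of the elastic fibre did not move one way. Of 17 listed microfibril and elastic fibre genes, 15 were tested. At 24 h, 6 were lower and 4 higher than at 0 h, where 12.0% of all genes were lower and 14.5% higher, with a median log2 change of -0.03 against 0.02 over all genes. Fbn2, the fibrillin used most in embryonic tissue, was lower, from a mean of 537 to 133 (log2 change -2.01, SE 0.13, adjusted p = 7.8e-06 from limma). Mfap2, which encodes a small microfibril glycoprotein, fell from 599 to 238 (log2 change -1.34) and Efemp1, which encodes fibulin-3, from 566 to 244 (-1.20). Loxl3, a relative of Lox, rose from 247 to 601 (1.31, adjusted p = 0.0012). Among genes outside the naming rule, the TGF-beta binding proteins split. Ltbp1 (1.01) and Ltbp2 (0.63) were higher, and Ltbp4 (-0.82) and Ltbp3 (-0.44) lower. In unsynchronised cells 7 of the 15 were lower and 4 higher, where 21.0% of all genes were lower and 21.7% higher, with a median of -0.26.

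Among the other small leucine-rich proteoglycans, Aspn, Podn and Prelp fell at 24 h. Of 12 listed, 6 were tested, and 5 passed the test as lower and 0 as higher, where 12.0% of all genes were lower and 14.5% higher. Of those 5, Omd and Kera reached the minimum only through starved cells and the first hours, so nothing is read from the count. Podn, which encodes podocan, went from a mean of 602 at 0 h to 124 at 24 h (log2 change -2.30, SE 0.23, adjusted p = 6.6e-05 from limma). The sixth, Podnl1, had a mean of 14.5 at 0 h and 19.8 at 24 h (adjusted p = 0.068) and was higher in unsynchronised cells, at 37.1 (adjusted p = 1e-04). Of 17 tested genes for enzymes that build the glycosaminoglycan chains, 3 were higher and 1 lower at 24 h, where 14.5% and 12.0% of all genes were, with a median of 0.05. Xylt1, which starts the chain, was higher (log2 change 1.07, adjusted p = 0.00083), as were the sulfotransferase gene Chst11 (1.02) and the chondroitin synthase gene Chsy1 (0.42), and Chsy3 was lower (-0.73). Xylt1 differed from 0 h by 0.20 in unsynchronised cells (adjusted p = 0.33).

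**Figure D4:**
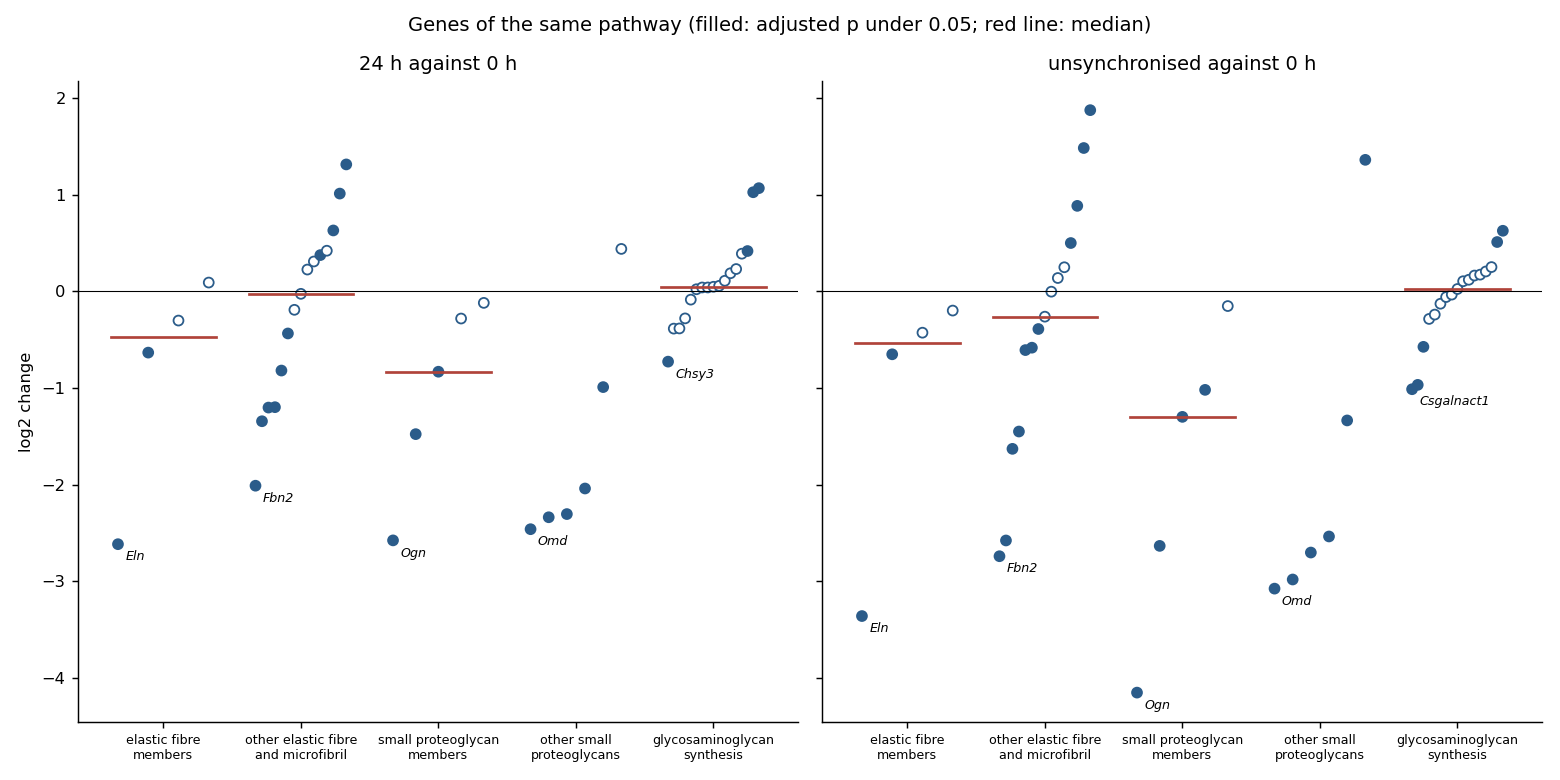
Log2 change of each tested gene (points; filled for an adjusted p under 0.05) in the members and in 3 related lists, at 24 h against 0 h and in unsynchronised cells against 0 h, with the lowest gene named and the median of each list as a red line, except for the other small proteoglycans, where Omd and Kera were below an intensity of 20 at 24 h and in unsynchronised cells. Genes of glycosaminoglycan synthesis lie around 0, with medians of 0.05 and 0.02.

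The members also differed in which genes ran closest to them over the 19 group means, 14 of which are single arrays of neighbouring times. Eln ran closest to Col14a1, which encodes a collagen of fibril surfaces (Pearson's r of 0.974 over 19 groups), Cdkn1c and Gpc3. Ogn ran closest to Gm2a, which encodes a lysosomal lipid-binding protein (0.971), Pltp and Abi3bp. Fbln5 and Fbln1 had the same closest gene, Gas6 (0.967 and 0.956), which encodes a ligand of the Axl receptor kinases. After it came Gpc4 and Sfrp2 for Fbln5 and C1qtnf6 and Mmp23 for Fbln1. Lum ran closest to Itgbl1 (0.964), Gxylt2 and Efemp1, and Dcn to Ctsk (0.932), Sulf1 and Itgbl1. Dcn spanned only 0.38 on the log2 scale over the course, and its change in unsynchronised cells was -1.30. Its r values, also that with Lum below, therefore rest largely on the unsynchronised group and are not read as shared courses. Fmod ran closest to Clu (0.945), C1qtnf3 and Alox5ap. For Lox the highest value was 0.817 (Penk, then Sparc and Sulf1) and for Bgn 0.833 (Mospd3, then Smpd2 and Tspan17). The number of genes at 0.9 or above was 77 for Fbln5, 70 for Ogn, 57 for Eln, 19 each for Fbln1 and Fmod, 9 for Lum, 2 for Dcn and 0 for Lox and Bgn. Among the members the closest pairs were Fbln1 with Fbln5 (0.934), Dcn with Lum (0.923) and Eln with Ogn (0.915), and Lox was near 0 with Fbln1 (0.0041) and Fmod (0.017).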

How the data were processed

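Total RNA of MEF was hybridised to 24 Affymetrix Mouse Gene arrays. The authors ran RMA from the oligo package over the whole set and deposited linear intensity values, from 1.74 to 6335, although a table header names log2. Tool versions and the build behind the probe sets were not given in the sources used here. Both deposited tables held the same values. The authors gave no test for these arrays. Of 41345 probe sets, the platform annotation gives 1 gene to 23521, several to 1820 and does not list 16004, and 14182 reached 20 in at least 2 arrays. Genes were read from the brightest probe set with exactly that gene, which left 9908.

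A model with a mean for every group (19 groups, 24 arrays) was fitted to log2 intensity in limma 3.58.1 under R 4.3.3. It left 5 residual degrees of freedom, to which moderation added 5.58. Tests were two-sided with Benjamini-Hochberg adjustment over all genes at 0.05. Single arrays are assumed to vary as the duplicates do, and precision is limited by how few arrays there are. The fit was tested on simulated data. The members and gene lists were chosen with earlier results of these data known. By rule, the text names all members, up to 4 genes with the largest called change at 24 h in each related list, and the 3 genes most like each member. In marker lists it names the brightest gene and any called at 24 h against 0 h. Neighbours, further list members and dim markers were named after their values were seen. Neighbour order comes from RefSeq on GRCm38.p6. Alternatives were other minimums and floors, other probe set rules, centring, renewed quantile normalization, a variance trend, a required 2-fold change, a replicate block, fits to the compared groups alone, and leaving out single arrays. Comparisons of 18 h with 12 h and of 24 h with 18 h were added after the data were seen. Promoters were scanned in Python 3.11.15.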

Additional observations from a re-analysis of the deposited data

How the results depend on the processing

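Of 2191 recomputed log2 changes of members, 2085 kept their direction and side of the threshold, 56 lost their call, 21 gained one and 29 changed sign. Many settings, such as leaving out an array of a group not compared, could alter the p-value but not the size or sign. The 2085 are therefore no measure of how stable the changes were. The changed sign was past the threshold for Eln at 4 to 10 h without the second 0 h array (0.77, adjusted p = 0.0046, against -0.88 without the first), which was 0.28 without the 10 h array. The others were not past the threshold with the changed sign, and apart from Eln at 0.5 to 2 h they were small. Leaving out single arrays gave ranges across 0 at 0.5 to 2 h for Eln (-0.24 to 1.40, the upper end past the threshold), Fbln1 (-0.10 to 0.20) and Fbln5 (-0.080 to 0.19, and -0.014 without the 0.5 h array). At 24 h against 12 h they were -0.059 to 0.19 for Fbln1 and -0.18 to 0.12 for Fbln5, and against unsynchronised cells -0.00065 to 0.25 and -0.13 to 0.17. At 24 h against 18 h they were -0.11 to 0.19 for Fbln5, -0.00059 to 0.035 for Lox, -0.21 to 0.13 for Ogn and -0.034 to 0.046 for Bgn, and at 18 h against 12 h -0.36 to 0.045 for Fmod. Centring gave 0.0030 for Bgn at 12 h and -0.0013 at 24 h against 18 h. Renewed quantile normalization gave -0.014 for Bgn and -0.068 for Lox at 24 h against 18 h and -0.039 for Lox at 26 to 30 h. The mean over probe sets of Bgn gave 0.015 at 18 h against 12 h and -0.038 at 24 h against 18 h, and its dimmer probe set 0.11 and -0.082, and 0.025 at 24 h against 12 h. Requiring a 2-fold change left 4 members lower at 18 h, 3 at 24 h, 0 at 4 to 10 h, 3 at 26 to 30 h, and 0 for 24 h against 12 h and 18 h against 12 h. With only the groups compared, 3 were lower at 12 h, 2 at 24 h against 12 h and 2 at 18 h against 12 h, the second member being Eln, and with values below 20 set to 20, 0 were lower at 18 h against 12 h. Leaving out single arrays gave 3 to 5 lower members at 12 h (3 without the second 12 h array), 0 to 2 for 24 h against 12 h and for 18 h against 12 h, and 0 to 1 higher at 0.5 to 2 h and at 4 to 10 h, where Eln was higher without the second 0 h array. Without single 0 h arrays, the other small proteoglycans had 0 to 1 higher at 24 h, glycosaminoglycan synthesis had 1 to 2 lower at 24 h and 1 to 2 higher in unsynchronised cells, and TGF-beta genes had 1 to 2 higher in unsynchronised cells. Same-numbered arrays did not deviate together, with correlations from -0.37 to 0.22 and 3 of 10 pairs over 0.1, so numbers were not taken as pairs. With the replicate block, Dcn at 18 h lost its call (log2 change -0.38, adjusted p = 0.058), and no count of members moved by over 1.5 times. The causes of these shifts were not tested. Array medians differed by at most 0.08 from their mean on the log2 scale.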

Other observations

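Of 15 tested proteases that cleave elastic fibres or proteoglycans, 3 were higher and 3 lower at 24 h than at 0 h (limma, adjusted p under 0.05), where 14.5% and 12.0% of all genes were. Mmp9, a gelatinase that also cuts elastin, had a mean of 20.8 in starved cells and 197 at 24 h (log2 change 3.26, SE 0.20, adjusted p = 6.2e-06). Mmp3, which cuts decorin and other proteoglycans, went from 78.1 to 712 (3.21, SE 0.17, adjusted p = 2.7e-06), and Tll1, a relative of the procollagen C-proteinase Bmp1, from 98.7 to 317 (1.65). Adamts5, an aggrecanase, went from 682 to 219.7 (-1.63), and outside the naming rule Adamts1 (-1.22) and Mmp2 (-0.43) were the others lower. In unsynchronised cells 3 were higher and 6 lower than at 0 h, where 21.7% of all genes were higher and 21.0% lower.

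Decorin and biglycan are known to bind TGF-beta. Of its 6 listed ligand and receptor genes, all tested, 1 was higher and 3 lower at 24 h, where 14.5% of all genes were higher and 12.0% lower. Tgfb2 went from a mean of 75.03 to 31.8 (log2 change -1.22, adjusted p = 0.0036 from limma), Tgfbr2 from 474 to 267 (-0.83) and Tgfbr1 from 95.04 to 63.7 (-0.59). Tgfbr3, which encodes betaglycan, rose at 24 h (0.47, adjusted p = 0.018) and was lower in unsynchronised cells than at 0 h (-0.77, adjusted p = 0.00072).

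The 26 h array read 33.5 for Nol8, where the 24 h arrays read 108 and 93.7 and the 28 h array read 95.8. That time has no replicate.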
